A study of Canis lupus familiaris with 12 samples.

Results

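Nonmuscle actomyosin, the contractile machinery of epithelial cells, was followed through 10 genes: the myosin heavy chains MYH9, MYH10 and MYH14, the light chains MYL6 and MYL12A, the actins ACTB and ACTG1, and the kinases MYLK, ROCK1 and ROCK2. A probe set (a group of probes read out as 1 value) was taken as a member when the platform annotation named 1 of these genes and no other. This rule gave 20 of the 43035 probe sets on the array, covering 8 of the 10 genes. MYH14 and MYL12A had no such probe set and are not analysed here. The results follow the roles of the members: heavy chains, light chain, actins and kinases.

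The samples were 6 arrays of cysts grown in 3-dimensional type I collagen (3D) and 6 arrays of flat sheets grown in 2-dimensional type I collagen (2D), the control condition. All came from MDCK II tet-off cells, a derivative of the Madin-Darby line of dog kidney tubule epithelium, kept in medium with serum and G418 and harvested by collagenase on day 8. Each array carried RNA pooled from 4 separate samples, so single cultures cannot be seen, and p-values measure the spread between pools. Fewer cells of a type and less RNA per cell cannot be told apart in such bulk samples.

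Nonmuscle myosin II is a motor built from a pair of heavy chains, each bound by an essential and a regulatory light chain, and it pulls on filaments of beta and gamma actin. Its activity is switched on when the regulatory light chain is phosphorylated, by myosin light chain kinase after calcium and calmodulin or by ROCK kinases, and is switched off by myosin phosphatase. In epithelia this system tenses the belt of actin beneath the apical junctions and the cell contacts with the matrix.

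Values are log2(intensity + 1) of the deposited intensities, and a change is the mean of 3D minus the mean of 2D on that scale, which understates the change of dim probe sets. Dim means near the control level, the 95th percentile on each array of 59 controls that carry bacterial or tag sequences, which averaged 5.71. Of the 16 member probe sets in the fit across all probe sets, 8 rose, 1 fell and 7 did not pass (limma, Benjamini-Hochberg adjusted p under 0.05), against a background of 16.7% of all probe sets raised and 22.0% lowered. The median change of the 16 was 0.18, and that of all probe sets was -0.06. In 6 of the 16 every 3D array lay above every 2D array, against 10.1% of all probe sets, and in 0 of the 16 did every 3D array lie below every 2D array, against 8.62%. By gene, with the brightest probe set standing for each, MYH9, MYL6, ACTG1 and ROCK2 rose, ACTB fell at a dim probe set, and MYH10, MYLK and ROCK1 did not pass. The other 4 member probe sets are Affymetrix control probe sets of ACTB and were tested apart. All 4 were higher in 3D.

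**Figure D1:**
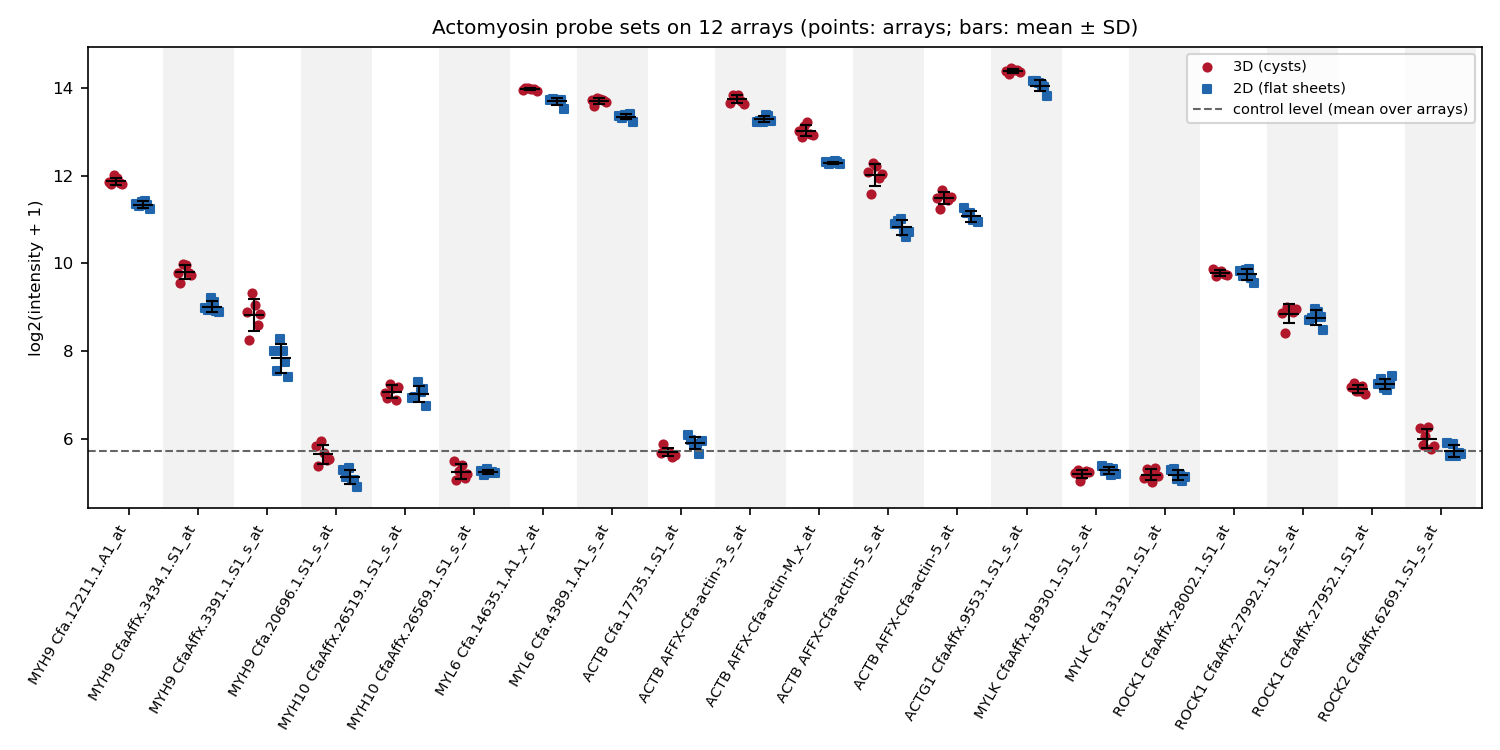
Log2(intensity + 1) of the 20 member probe sets (horizontal axis, gene and probe set) on each array, 3D as circles and 2D as squares, with the mean and SD of each group and the mean control level as a dashed line. The MYH9, MYL6, ACTG1 and ACTB control probe sets sit higher in 3D, the MYH10 and ROCK1 values of the groups overlap, and MYLK lies below the control level of 5.71.

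An RNA control ratio differed with culture, and several member calls ended with it as a covariate. The log2 ratio of 5-prime to 3-prime signal, averaged over the actin and GAPDH control pairs, was -0.54 ± 0.17 in 3D against -0.91 ± 0.14 in 2D (SD, n = 6 each), a difference with exact permutation p = 0.00866. Singly, the actin pairs differed by 0.44 and 0.74 (exact permutation p = 0.00866 and 0.00433). With another 5-prime set in the second actin pair, which is not part of the average, the difference was -0.05 (exact permutation p = 0.626). The GAPDH pairs differed by 0.06 and 0.24 (exact permutation p = 0.201 and 0.00866). The array of 3D replicate 2 stood apart at -0.88, while the other 3D arrays lay between -0.55 and -0.40. That array was the lowest of its group in 11 of the 20 member probe sets, and 2D replicate 6 was the lowest of its group in 12. With both arrays left out, every member that had passed in the fit still passed. The part of RNA quality in the changes was not tested beyond fits with a covariate. The first used this ratio, and another the ratio of the GAPDH pairs alone (the GAPDH ratio). With the first, every member probe set in the fit had a larger standard error, so a call could end with its estimate unchanged. The first is reported where it ended the call of a member, or of a gene picked by rule from a list reported singly. It is also given for some other genes, and the GAPDH ratio for some.

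MYH9, the heavy chain of nonmuscle myosin IIA, rose in all 4 of its probe sets. The brightest had a lowest, median and highest value of 11.81, 11.85 and 12.02 in 3D, against 11.23, 11.34 and 11.42 in 2D. The groups did not overlap. The change was 0.53 (SE 0.05, limma adjusted p = 5.00e-07), a 1.45-fold higher intensity. It stayed between 0.51 and 0.55 when any 1 array was left out and was 0.47 (SE 0.08, limma adjusted p = 0.000635) with the RNA control ratio as a covariate.

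The other MYH9 probe sets moved the same way by different amounts. The second ran from 9.56 to 9.99 in 3D, with a median of 9.79, and from 8.90 to 9.21 in 2D, with a median of 8.96, a change of 0.79 (SE 0.08, limma adjusted p = 5.27e-07). The next ran from 8.26 to 9.32 in 3D, with a median of 8.87, and from 7.41 to 8.26 in 2D, with a median of 7.88. It had the widest spread of the 4, with an SD of 0.37 in 3D and 0.32 in 2D, and its groups overlapped slightly. Its change was 0.99 (SE 0.16, limma adjusted p = 0.000183), which fell to 0.46 and no longer passed with the RNA control ratio as a covariate (limma adjusted p = 0.151). With the GAPDH ratio alone its change was 0.66 and passed (limma adjusted p = 0.0151). The last was dim, at 5.64 ± 0.22 in 3D against 5.13 ± 0.17 in 2D (SD, n = 6 each). All 6 of its 2D arrays and 3 of its 3D arrays lay at or below the control level, so no fold is given. Its call (limma adjusted p = 0.000518) was also lost with the covariate (limma adjusted p = 0.315). With the GAPDH ratio alone the change of this dim set was 0.33 and passed (limma adjusted p = 0.0374). The mean over all 4 sets changed by 0.71 (limma adjusted p = 1.27e-05).

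MYH10, the heavy chain of nonmuscle myosin IIB, did not pass. Its brighter probe set ran from 6.87 to 7.26 in 3D, with a median of 7.10, and from 6.74 to 7.29 in 2D, with a median of 7.01. The ranges of the groups lay nearly on top of each other. The change was 0.06 (95% confidence interval -0.13 to 0.24, limma adjusted p = 0.631). The second probe set, at 5.25 ± 0.17 in 3D against 5.23 ± 0.05 in 2D (SD, n = 6 each), was at or below the control level on all 12 arrays.

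The changes of the heavy chains differed from each other. The log2 ratio of MYH9 over MYH10 signal, taken within each array, was 4.81 ± 0.12 in 3D against 4.33 ± 0.14 in 2D (SD, n = 6 each), a shift of 0.48 with no overlap between the groups (exact permutation p = 0.00216, the smallest that 924 assignments allow, and 0.00325 adjusted over the 3 pairs tested). Only the shift can be read from such a ratio, since the probes of different genes differ in brightness. The 3 remaining pairs planned involved MYH14 or MYL12A.

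MYL6, the essential light chain of nonmuscle and smooth muscle myosin, rose in both probe sets. The brighter ran from 13.95 to 14.00 in 3D, with a median of 13.98, and from 13.53 to 13.76 in 2D, with a median of 13.73. The other ran from 13.60 to 13.78 in 3D, with a median of 13.73, and from 13.24 to 13.41 in 2D, with a median of 13.37. In both, every cyst array lay above every sheet array. The changes were small and tight, at 0.28 (SE 0.05, limma adjusted p = 0.000208) and 0.36 (SE 0.05, limma adjusted p = 1.44e-05), or 1.21-fold and 1.29-fold. Both passed under every alternative run, the RNA control ratio included (0.26 and 0.29).

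ACTG1, gamma actin of the cytoplasm, rose. Its single probe set ran from 14.34 to 14.47 in 3D, with a median of 14.42, and from 13.82 to 14.17 in 2D, with a median of 14.09, again with no overlap. The change was 0.35 (SE 0.06, limma adjusted p = 0.000185), a 1.27-fold higher intensity. With the RNA control ratio as a covariate it was 0.23 and did not pass (limma adjusted p = 0.0804). That ratio is built in part from actin control sets. With the GAPDH ratio alone the ACTG1 change was 0.28 and passed (limma adjusted p = 0.0107).

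ACTB, beta actin, moved in opposite directions at a dim probe set and at the bright control probe sets. The only probe set outside the controls lay close to the control level, at 5.69 ± 0.10 in 3D against 5.90 ± 0.15 in 2D (SD, n = 6 each). It fell by 0.21 (SE 0.07, limma adjusted p = 0.0248), and the groups overlapped. At this set 2 of the 3D arrays and 1 of the 2D arrays lay at or below the control level, which makes it a weak reading of ACTB. That call ended with quantile normalization (change -0.14, limma adjusted p = 0.109). With the RNA control ratio as a covariate the change stayed at -0.21, but its SE was 0.11 and the call ended (limma adjusted p = 0.239). The call also ended when 3D replicate 5, 3D replicate 6, 2D replicate 1 or 2D replicate 2 was left out (limma adjusted p = 0.0521 to 0.0577).

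The 4 control probe sets that name ACTB are bright and were all higher in 3D. The 3-prime set (AFFX-Cfa-actin-3_s_at) ran from 13.65 to 13.85 in 3D, with a median of 13.77, and from 13.23 to 13.39 in 2D, with a median of 13.26. The middle set (AFFX-Cfa-actin-M_x_at) ran from 12.89 to 13.22 in 3D, with a median of 12.99, and from 12.27 to 12.33 in 2D, with a median of 12.30. A 5-prime set (AFFX-Cfa-actin-5_s_at) ran from 11.59 to 12.30 in 3D, with a median of 12.06, and from 10.61 to 11.02 in 2D, with a median of 10.82. In these 3 no cyst array reached down to a sheet array, and the gap widened from the 3-prime to the 5-prime end. The changes were 0.47 at the 3-prime end, 0.73 in the middle and 1.21 at the 5-prime end (exact permutation p = 0.00216 each). The other 5-prime set (AFFX-Cfa-actin-5_at) broke this order, at 11.49 ± 0.14 in 3D against 11.08 ± 0.13 in 2D (SD, n = 6 each), a change of 0.41 (exact permutation p = 0.00433), and it was no longer called with the RNA control ratio as a covariate (0.14, limma adjusted p = 0.266). That covariate is built in part from the actin control sets, so it is not independent of them. With the ratio of the GAPDH controls alone, all 4 passed (0.24 to 0.90).

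**Figure D2:**
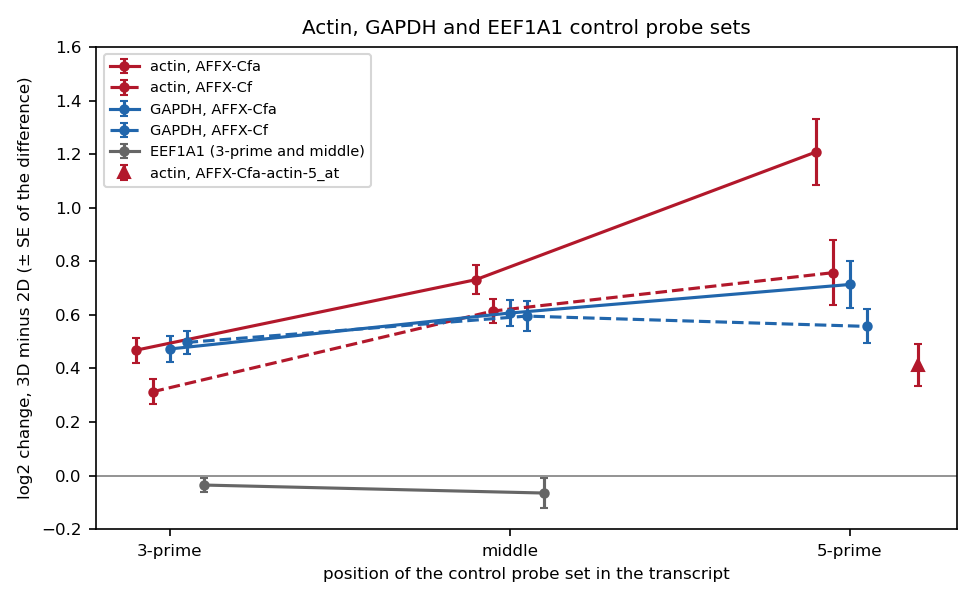
Change in log2 value, 3D minus 2D, of the actin, GAPDH and EEF1A1 control probe sets (vertical axis, bars ± SE of the difference, n = 6 arrays each) by their position in the transcript. Among the sets joined as AFFX-Cfa actin the change grows from 0.47 at the 3-prime end to 1.21 at the 5-prime end, while the triangle, a second 5-prime set, sits at 0.41 and EEF1A1 lies near 0.

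Control probe sets of other genes put the actin values in context. GAPDH, a glycolytic enzyme, was higher in 3D by 0.47, 0.61 and 0.71 at the 3-prime, middle and 5-prime sets of the same design (exact permutation p = 0.00216 each). EEF1A1, a translation elongation factor, differed by -0.04 at its 3-prime set (exact permutation p = 0.188) and -0.07 at its middle set (exact permutation p = 0.260). The log2 ratio of 5-prime to 3-prime actin signal was -1.73 ± 0.27 in 3D against -2.47 ± 0.22 in 2D with the first 5-prime set (SD, n = 6 each), which gave exact permutation p = 0.00433, and -2.27 ± 0.17 in 3D against -2.21 ± 0.18 in 2D with the other (exact permutation p = 0.626).

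The ratio of ACTB to ACTG1 followed the choice of ACTB probe set. With the dim set outside the controls, the log2 ratio was lower in 3D by -0.55 (exact permutation p = 0.00216, 0.00325 adjusted over the 3 pairs). With the control sets, a comparison added after the data were seen, the shift was 0.12 at the 3-prime set (exact permutation p = 0.130), 0.39 at the middle set (exact permutation p = 0.00216), 0.86 at the first 5-prime set (exact permutation p = 0.00216) and 0.07 at the other (exact permutation p = 0.249). A difference between the cytoplasmic actins therefore has no sign common to the 5 probe sets.

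Of the member kinases that phosphorylate the light chain, ROCK2 alone passed, at a dim probe set. MYLK, myosin light chain kinase, was at or below the control level on all 12 arrays in both of its probe sets. Its values were 5.20 ± 0.09 in 3D against 5.27 ± 0.07 in 2D at the first and 5.18 ± 0.12 in 3D against 5.17 ± 0.11 in 2D at the second (SD, n = 6 each). A level of MYLK was thus not detectable above the controls in either culture, and no fold is given.

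ROCK1, a kinase that acts on the light chain and on myosin phosphatase, did not pass in any of its 3 probe sets. The brightest ran from 9.71 to 9.88 in 3D, with a median of 9.78, and from 9.55 to 9.88 in 2D, with a median of 9.77, a change of 0.04 (95% confidence interval -0.09 to 0.16, limma adjusted p = 0.633). The other sets had changes of 0.09 (95% confidence interval -0.11 to 0.30, limma adjusted p = 0.468) and -0.12 (95% confidence interval -0.25 to 0.01, limma adjusted p = 0.140). The groups overlapped in all 3, and the intervals reach down to -0.25 and up to 0.30.

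ROCK2, the related kinase, rose by 0.28 (SE 0.09, limma adjusted p = 0.0237), near the control level. It ran from 5.76 to 6.26 in 3D, with a median of 5.95, and from 5.59 to 5.91 in 2D, with a median of 5.65. The groups overlapped, and 4 of the 6 sheet arrays but 0 of the cyst arrays lay at or below the control level. The call ended with the RNA control ratio (0.10, limma adjusted p = 0.702) and with the GAPDH ratio (0.20, limma adjusted p = 0.262). Leaving out 3D replicate 1, 3D replicate 4 or 2D replicate 2 ended it too (limma adjusted p = 0.0533 to 0.0605). The log2 ratio of ROCK1 over ROCK2 was 3.79 ± 0.16 in 3D against 4.03 ± 0.14 in 2D (SD, n = 6 each), a shift of -0.24 (exact permutation p = 0.0173, also 0.0173 adjusted over the 3 pairs). It was -0.38 with quantile normalization. This ratio is taken over a ROCK2 signal that was not above the controls on 4 of the 6 sheet arrays, so its size is uncertain. With the RNA control ratio as a covariate the changes of its parts were -0.058 for ROCK1 and 0.097 for ROCK2, and neither passed.

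**Figure D3:**
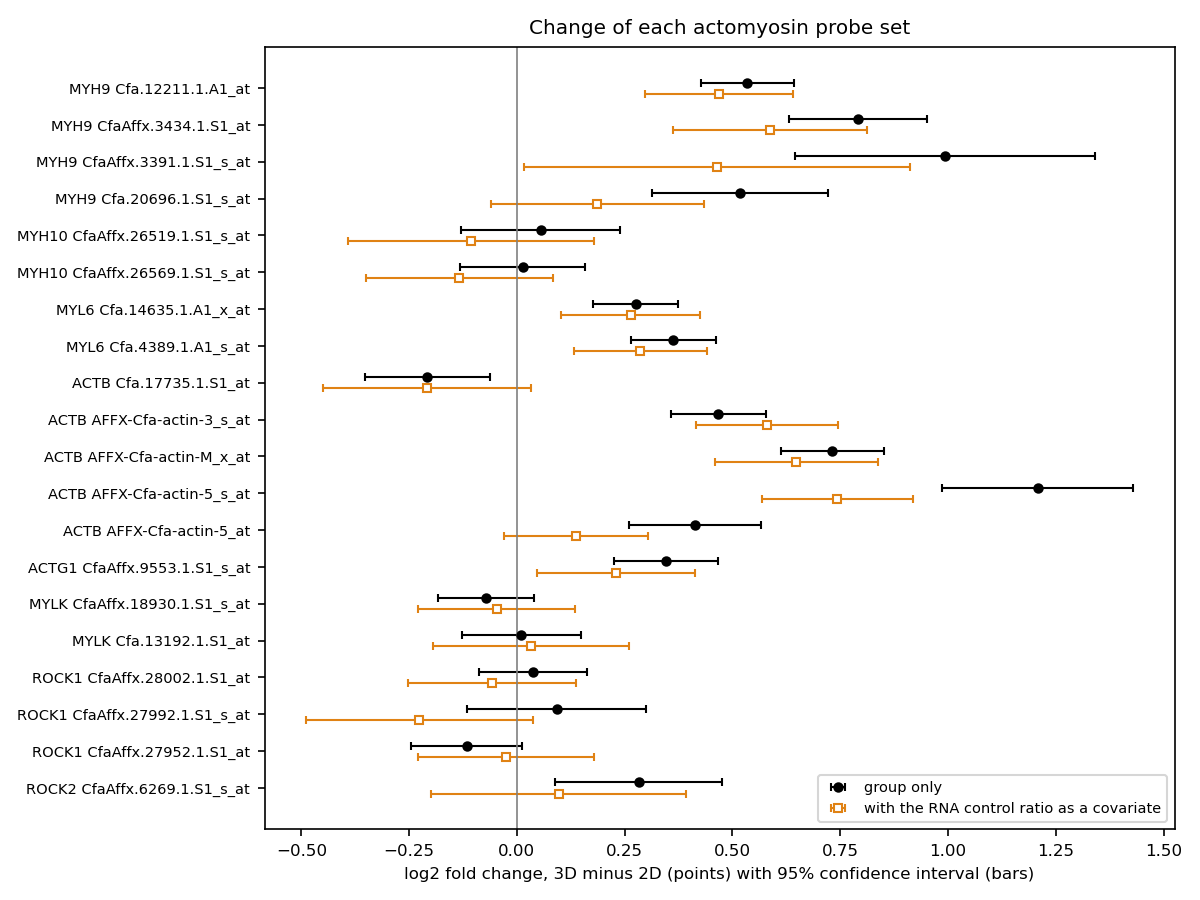
Log2 fold change, 3D minus 2D (horizontal axis, bars 95% confidence intervals), of the 20 member probe sets with culture as the only term (circles) and with the RNA control ratio as a covariate (squares). With the covariate the MYH9 set with the widest interval has 0.46 in place of 0.99, the first 5-prime ACTB set 0.74 in place of 1.21, and the MYL6 sets 0.26 and 0.29 in place of 0.28 and 0.36.

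Of the 16 member probe sets in the fit, 10 carry the suffix _s_at or _x_at, which marks probes that can match several transcripts of a family. They include both MYL6 sets, ACTG1, ROCK2, both MYH10 sets and 2 of the 4 MYH9 sets. Those MYH9 sets are the one with the change of 0.99 and the dim one. All these values are uncertain as to which family member they measure. Of the 4 ACTB control sets 3 carry such a suffix too, all but AFFX-Cfa-actin-5_at, and the same uncertainty holds for them. A further probe set naming MYL6 together with MYL6B was not used.

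The profile of MYH9, which had the largest change of the 8 genes when each is read by its brightest probe set outside the controls, was most like those of GPR180, FUT2 and PCNX1. Likeness was the root mean square difference over the 12 arrays between log2 profiles centred on their own means, which was 0.05 for each of the 3. Their changes of 0.48, 0.52 and 0.57 are a description, since the profile they were matched to holds the change of MYH9.

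Other genes of the pathway were counted by list, each gene by its brightest probe set, against 19.8% of all genes raised and 22.9% lowered. Over 11 lists with 154 measured genes, 70 rose and 23 fell, with a median change of 0.11 against -0.05 for all genes. Without 2D replicate 6 and 3D replicate 2, 71 rose and 29 fell. With the RNA control ratio as a covariate, 42 rose and 14 fell. Over all 42924 probe sets the main fit raised 7171 and lowered 9437. The fit without those arrays raised 7778 and lowered 10735, and the covariate fit raised 4303 and lowered 3624.

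The largest group was that of actin filament assembly and turnover, where 24 of 33 measured genes rose and 2 fell, with a median change of 0.34 (24 and 1 without both of the arrays named above, 18 and 1 with the covariate). DSTN, an actin-severing protein of the cofilin family, rose by 0.90 (SE 0.04), CORO1C, a coronin, by 0.89 (SE 0.07) and PFN1, the actin monomer carrier profilin, by 0.79 (SE 0.05; limma adjusted p = 1.84e-10, 5.35e-08 and 1.24e-08). The pair that fell, named after their values were seen, were LIMK1 (-0.17, limma adjusted p = 0.0449) and LIMK2 (-0.42, limma adjusted p = 4.29e-06), kinases that act downstream of ROCK and inactivate cofilin. LIMK1 was not far above the control level, at 5.88 in 3D against 6.05 in 2D, and 1 of its 2 probe sets was lowered. Whether each of the pair kept its call with the covariate is not given here. Among other actins 3 of 5 rose (1 with the covariate). ACTA2, the smooth muscle actin, rose at least 20.9-fold over a control-level signal on all 6 sheet arrays, whereas ACTA1 and ACTC1, striated muscle actins, rose by 0.21 and 0.17, and these last calls ended with the covariate (limma adjusted p = 0.312 and 0.186). The 2 probe sets of ACTC1 moved in opposite directions. The sets read here for ACTA1 and ACTC1 carry the suffixes _x_at and _s_at, so which actin they measure is uncertain.

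Among other myosin II chains 4 of 13 rose and 3 fell, with a median of -0.11 (4 and 0 with the covariate). MYL9, the regulatory light chain of smooth muscle, rose by 2.16 (SE 0.10, limma adjusted p = 9.52e-11), with 7.87 in 3D against 5.71 in 2D, where 4 of the 6 arrays lay at or below the control level. MYL4, an essential light chain of atrial muscle, rose by 0.93 (SE 0.07), and MYL6B, a relative of MYL6, by 0.48 (SE 0.07). MYL12B, a close relative of MYL12A and named after its value was seen, had a change of -0.11 (SE 0.05, limma adjusted p = 0.116), with 13.54 in 3D and 13.65 in 2D. Of 14 tropomyosins and filament-associated regulators 5 rose and 2 fell, with a median of 0.03 (5 fell without that pair of arrays, and with the covariate 2 rose and 0 fell). Tropomyosin TPM4 rose by 0.95 (SE 0.05), the calponin CNN3 by 0.40 (SE 0.06) and the pointed-end capping protein TMOD3 by 0.77 (SE 0.20, limma adjusted p = 0.00737). All 6 probe sets of TPM4 were raised. Under the covariate the TMOD3 change was -0.10 (limma adjusted p = 0.761), and under the GAPDH ratio alone it was 0.15 (limma adjusted p = 0.464).

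Genes that set light chain phosphorylation went both ways. Of 15 other kinases able to act on the light chain or its phosphatase, 5 rose and 3 fell, with a median of 0.03 (3 and 0 with the covariate). PAK1 and PAK2, kinases activated by RAC1 and CDC42, rose by 0.70 (SE 0.05) and 0.35 (SE 0.05; 0.19 with the covariate, limma adjusted p = 0.0466), and the death-associated kinase DAPK1 fell by 0.32 (SE 0.08). The DAPK1 change was -0.31 with the covariate, and its call ended (limma adjusted p = 0.117). Of 8 genes of myosin phosphatase and its inhibitors 4 rose and 2 fell, with a median of 0.13 (1 and 1 with the covariate). PPP1R12A, the targeting subunit that ROCK inhibits, rose by 0.54 (SE 0.10, limma adjusted p = 0.000525, but 0.261 with the covariate), and PPP1R14B, an inhibitor of the phosphatase family, by 0.27 (SE 0.05). PPP1R16A fell by 0.28 (limma adjusted p = 0.0424), a call lost under 11 of 23 alternatives, among them leaving out 3D replicate 1, 3, 4, 5 or 6 or 2D replicate 4 or 5 (limma adjusted p = 0.0561 to 0.0832). The PPP1R16A change was -0.093 with the covariate (limma adjusted p = 0.753), -0.16 with the GAPDH ratio (limma adjusted p = 0.407) and -0.17 without 2D replicate 6 (limma adjusted p = 0.0347). Of 2 measured calmodulin genes CALM2 rose by 0.26 (SE 0.05), and this call too was lost with the covariate (limma adjusted p = 0.121).

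Of 11 other nonmuscle myosins 3 rose and 4 fell, with a median of 0.03. MYO19, a motor of mitochondria, rose by 0.70 (SE 0.05) and the membrane motor MYO1C by 0.68 (SE 0.05), and MYO6, which walks towards the minus end of actin, fell by 0.46 (SE 0.10). The MYO6 change was -0.80 with the covariate (limma adjusted p = 0.000291).

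**Figure D4:**
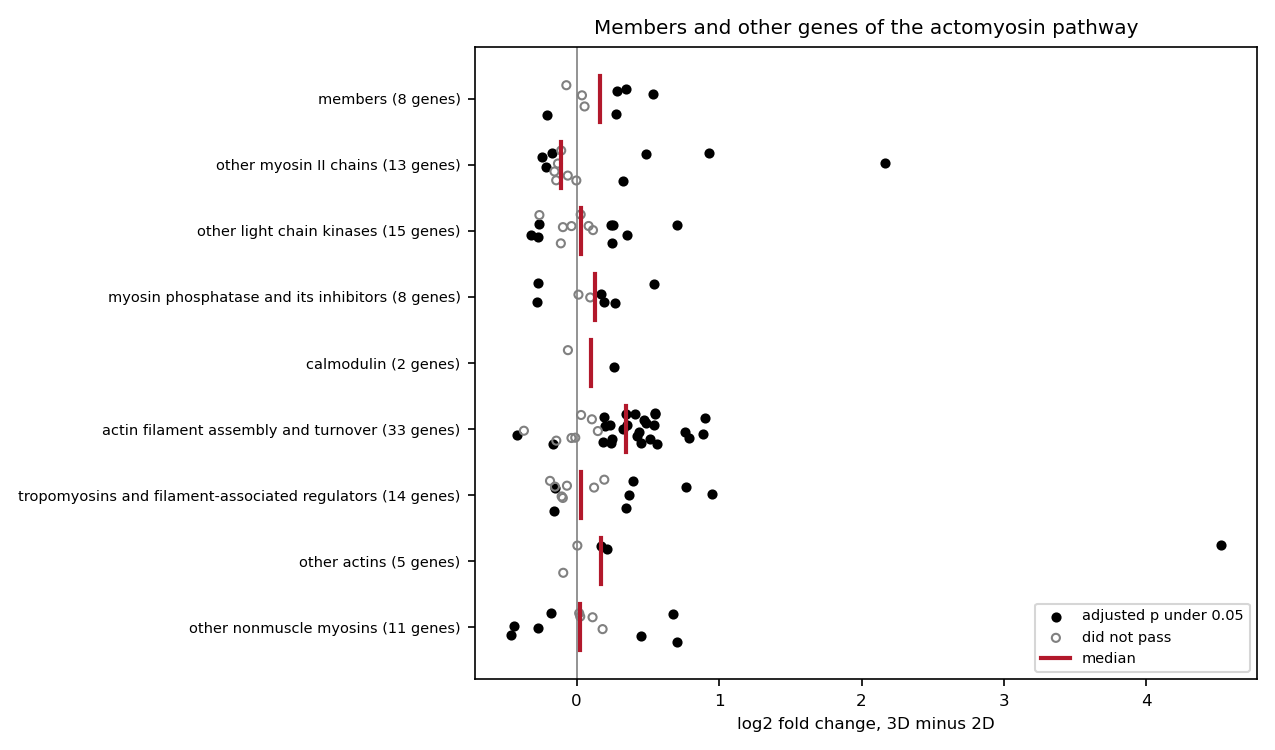
Log2 fold change, 3D minus 2D, of each gene (points, filled where the adjusted p was under 0.05) for the 8 member genes and for 8 lists of other pathway genes, with the median of each list as a bar. The list of actin filament assembly has a median of 0.34, and ACTA2 stands far to the right.

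Markers of several cell types were read beside these values, although all arrays came from the same epithelial line. For tubule epithelium 4 of 9 markers rose and 3 fell, with a summed intensity of 36572 to 38403 in 3D and 31769 to 35611 in 2D. For smooth muscle and myofibroblasts 3 of 10 rose (ACTA2, TAGLN and SMTN) and 3 fell (CNN1, MYH11 and SYNPO2), with a sum of 4961 to 6387 in 3D and 1030 to 1125 in 2D. TAGLN averaged 11.86 in 3D and 7.67 in 2D, and ACTA2 10.15 and 5.62, and these carried most of the higher sum. DES, ACTG2 and MYOCD did not pass, and LMOD1 lay at or below the control level on all 12 arrays. For fibroblasts 0 of 8 rose and 2 fell, with a sum of 460 to 506 in 3D and 486 to 569 in 2D and COL1A2 at the control level. For leukocytes 1 of 7 rose (CD14) and 3 fell, with a sum of 502 to 583 in 3D and 527 to 573 in 2D and CD79A and LYZ at the control level. For endothelium 0 of 6 rose and 2 fell, with a sum of 440 to 503 in 3D and 499 to 540 in 2D and PECAM1 at the control level. The part of smooth muscle genes in the changes of the members was not tested.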

How the data were processed

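The deposited table holds, for each array, a linear intensity of every probe set, made by the authors with GCRMA (background correction and summary of Affymetrix arrays), per the submitters' processing notes. The sources used here name no version, probe set definition or later scaling. The deposited intensities were used as log2(intensity + 1) without further normalization. Arrays were grouped by title. Without the 111 controls, 42924 probe sets entered the fit, of which 29254 named 1 gene (15115 genes). Gene IDs of all 8 measured members were found in RefSeq genes, used for names alone. The groups were compared with limma 3.58.1 (lmFit, eBayes; R 4.3.3), two-sided, with Benjamini-Hochberg adjustment over all 42924 probe sets. Single values, control probe sets and ratios within arrays were tested by exact permutation of the group labels (two-sided, 924 assignments). Depth has no meaning for arrays, and their number, 6 per group, limits the precision. The calculation was tested on simulated data. Figures were drawn with matplotlib 3.10.9.

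The members and lists were chosen with earlier results of these data known. The text names every member, and per list up to 3 genes, those changed most that passed, or the brightest if none passed. Of the 11 lists, 3 enter the totals and are not reported singly here. It also names the 3 genes most like the member changed most. Alternatives were quantile normalization, median centring, a filter at the control level, a pseudocount of 16, a robust prior with trend, weights per array, a replicate block, covariates for the RNA control ratio, leaving out arrays, and the mean over probe sets.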

Additional observations from a re-analysis of the deposited data

Results flagged for a closer look

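In 11 of 102 groups of 6 arrays, taken over the member probe sets and the named genes, 1 array lay far from the other 5, which chance gives for about 1 group in 20. Of the members, the brightest MYL6 set was 13.53 in 2D replicate 6, with the other sheet arrays between 13.72 and 13.76. The second ROCK1 set was 8.41 in 3D replicate 2, with the other cyst arrays between 8.87 and 9.00.

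Among other genes in 2D, replicate 6 was high for MYL9 (6.13) and low for PPP1R12A (6.62), CALM2 (13.34) and RAC1 (12.86), and replicate 1 was high for DAPK1 (8.65). In 3D, replicate 2 was low for NET1 (8.29), TMOD3 (6.64) and MYO6 (8.85), and replicate 1 was low for PPP1R14B (10.98). Of these 11 values, 5 were in 2D replicate 6 and 4 in 3D replicate 2. No cause was tested.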

How the results depend on the processing

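The MYH9, MYL6, ACTG1 and ROCK2 changes kept their sign under every alternative run. With the RNA control ratio of actin and GAPDH as a covariate, the member genes raised were 2 in place of 4, the member probe sets raised 4 in place of 8, and the list genes 42 raised and 14 lowered in place of 70 and 23. Over all probe sets it gave 4303 raised and 3624 lowered, and the GAPDH ratio alone 5416 and 4910, in place of 7171 and 9437. The count of lowered member genes, and of lowered member probe sets, is 1 (ACTB) and became 0 with quantile normalization and with either covariate, and ranged from 0 to 1 when arrays were left out. Left-out arrays gave 3 to 4 member genes raised, 7 to 8 probe sets raised, and 65 to 73 list genes raised and 17 to 26 lowered. Median centring lowered 15 list genes.

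Sign changes occurred in probe sets that did not pass and in TMOD3. The brightest ROCK1 set had -0.031 with quantile normalization, -0.058 and -0.016 with the actin and GAPDH and the GAPDH covariates, and -0.0022 to 0.064 with arrays left out. The second ROCK1 set had -0.0086, -0.23 and -0.14 under the first 3 of these. The MYH10 sets had -0.11 and -0.13 with the actin and GAPDH covariate and -0.049 and -0.070 with GAPDH alone, and the dimmer ranged from -0.035 to 0.054 with arrays left out. The second MYLK set had -0.012 with array weights, -0.025 without both 2D replicate 6 and 3D replicate 2, and -0.020 to 0.044 with arrays left out. TMOD3 had -0.10 with the actin and GAPDH covariate. The ACTB over ACTG1 shift turned to 0.12, 0.39, 0.86 and 0.068 with the 4 ACTB control sets, and stayed within -0.60 and -0.50 with arrays left out. With arrays left out, the shift of MYH9 over MYH10 ranged from 0.44 to 0.52 and that of ROCK1 over ROCK2 from -0.29 to -0.20. With the mean over probe sets they were 0.67 and -0.28, and with quantile normalization 0.46 and -0.38. The causes were not tested.

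The filter at the control level gave no value for the second sets of MYH10 and MYLK, the fourth of MYH9 and the first of MYLK. Same-numbered arrays deviated together with correlations of 0.001 to 0.36 across probe sets, and 1 of 6 3D arrays correlated best with its own number, so the numbers were not taken as pairs. With the replicate block 4 member genes rose and 1 fell, as without it, and 70 list genes rose and 28 fell.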
